A study of Canis lupus familiaris with 9 samples.

Results

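The aminoacyl-tRNA synthetases of canine skeletal muscle were compared between dogs fed without restriction and dogs fed to hold their weight. A gene was taken as a member where its platform symbol was that of a cytosolic or a mitochondrial synthetase, and each gene was read through the probe set with the highest mean over the 9 arrays. This gave 33 of the 15115 genes with a symbol on the array, 18 for cytosolic and 15 for mitochondrial enzymes. Ad libitum dogs, animals 2, 5, 6, 7 and 8, ate without restriction for 24 weeks (n = 5). Control dogs, animals 1, 3, 4 and 9, received the amount that kept body weight at baseline (n = 4). All 9 were intact female beagles aged 4 years on the same commercial diet, assigned to a group at random and sampled after fasting overnight, with 1 array per dog. The labels name neither the muscle nor a batch, and each dog was a separate animal. Cytosolic and mitochondrial members stood apart from each other by their names, with KARS1 counted as cytosolic although its gene is known to make both forms. Synthetase genes that the rule did not match were not analysed here.

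Aminoacyl-tRNA synthetases join each amino acid to its transfer RNA, the step that sets which amino acid the ribosome adds at a codon. Animal cells keep separate sets for the cytosol and for the mitochondrial matrix, both encoded in the nucleus, and several of the cytosolic enzymes are held in a multisynthetase complex with the scaffold proteins AIMP1, AIMP2 and EEF1E1. Enzymes of class I and class II differ in the fold of their catalytic domain. Many of the cytosolic genes are known targets of ATF4, the transcription factor of the amino acid response, which is translated when uncharged transfer RNA accumulates.

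The GCRMA values, read as log2, ran from 0.652 to 16.6, and limma was run on the 18394 probe sets that exceeded 4 on 4 or more arrays. Array pairs correlated at r = 0.934 to 0.981 over these probe sets. Markers of skeletal muscle were present, with 16 of 17 on the array tested and list means of 15.0 to 15.4 in ad libitum dogs and 15.3 to 15.4 in control dogs. Markers of fibroblasts and matrix, macrophages and adipocytes were mostly higher in ad libitum muscle, with list means that overlapped between the groups. Those of endothelial cells were not, with 5 of 10 higher and 5 lower and a median log2 difference of 0.046. The 16 tested fibroblast and matrix markers were all higher in ad libitum muscle (list means 7.56 to 11.6, against 7.28 to 8.65 in control dogs), as were the 8 tested macrophage markers (5.00 to 8.01, against 4.90 to 5.66), and 14 of 16 adipocyte markers (8.35 to 10.2, against 7.63 to 9.06), with 0 of these markers past an adjusted p of 0.05 (limma) and 11, 3 and 4 at an unadjusted p under 0.05. Over all tested genes 50.4% were lower, and 6.23% had an unadjusted p under 0.05 (limma). In bulk RNA, fewer cells of a type and less RNA per cell cannot be told apart. The GAPDH control probe sets, read as 3' minus 5' value, ran from 2.14 to 2.29 in ad libitum dogs and from 1.96 to 2.22 in control dogs. Those of ACTB ran from 5.13 to 6.67 in ad libitum dogs and from 5.08 to 5.33 in control dogs, and the part of this in the synthetase values was not tested.

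The cytosolic enzymes differed little between the groups, and most of the small differences ran towards lower values in ad libitum muscle. All 18 passed the filter on low values. Their log2 differences, ad libitum minus control, ran from -0.30 for FARSA to 0.13 for WARS1, with 13 lower and 5 higher and a median of -0.10, a fold of 0.931. Over all 7534 tested genes with a symbol the median was -0.0021 and 50.4% were lower, against 72.2% of the cytosolic members. With limma and Benjamini-Hochberg adjustment over all tested probe sets, 0 of the 18 had an adjusted p under 0.05 (lowest 0.806) and 0 had an unadjusted p under 0.05. The groups overlapped in each of them, while they did not overlap for 1.46% of all tested genes. Over all tested genes 0 had an adjusted p under 0.05 (0.0%) and 469 an unadjusted p under 0.05 (6.23%). The arrays bound the size of any difference: the 95% interval lay within 0.5 of 0 on the log2 scale for 9 of the 18 and within 1 for all 18, where 35.0% and 82.6% of all tested genes had such intervals. The median moved to -0.038 without ad libitum dog 2 and -0.050 without control dog 3, and to -0.17 and -0.16 without ad libitum dogs 7 and 8, with 12 to 16 of 18 lower when 1 dog was left out. With each dog's mean over the adipocyte list added to the fit as a covariate, the median turned to 0.046, with 8 of the cytosolic enzymes lower. That list mean itself ran higher in ad libitum dogs, so such a fit cannot tell adipocyte content from feeding.

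**Figure D1:**
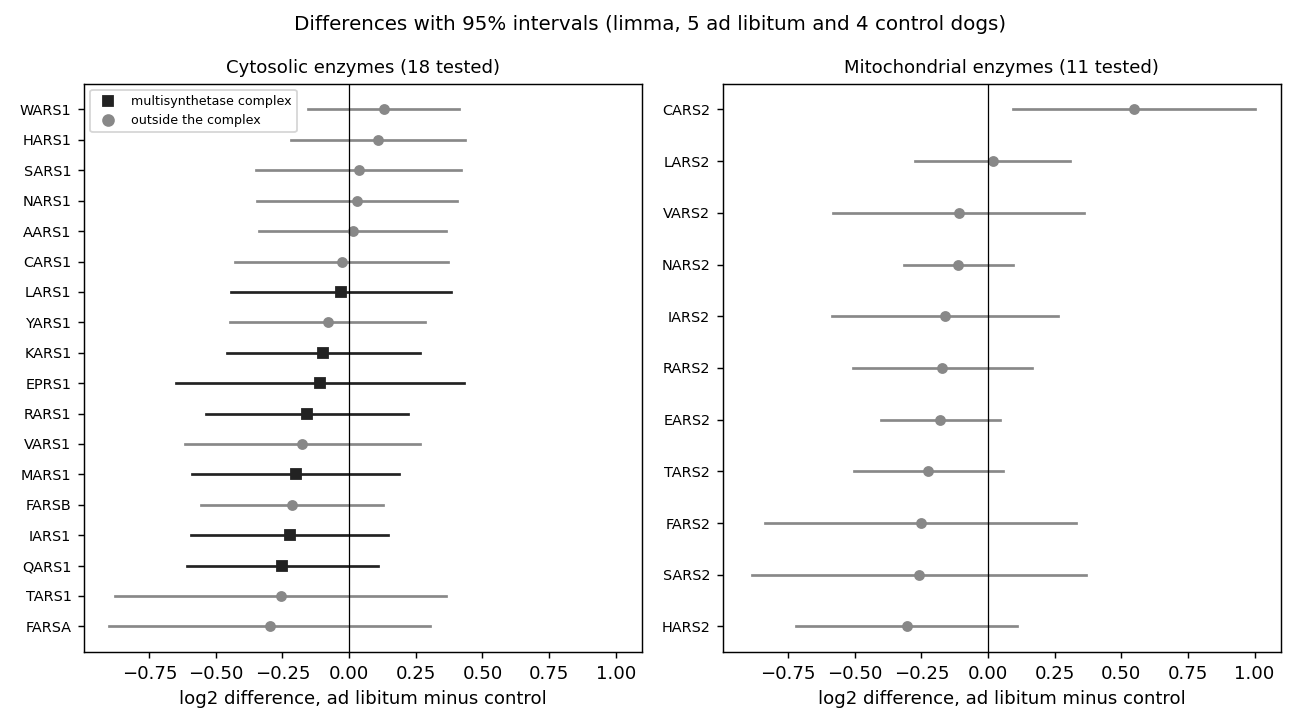
Log2 differences, ad libitum minus control, of the 18 cytosolic (left) and 11 tested mitochondrial (right) synthetases, with 95% intervals from limma over 5 ad libitum and 4 control dogs; squares mark enzymes of the multisynthetase complex. The points lie between -0.31 and 0.13 except CARS2 at 0.55, whose interval alone leaves out 0.

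The 7 measured enzymes of the multisynthetase complex all had lower means in ad libitum muscle, with a median log2 difference of -0.16. None of them had an unadjusted p under 0.05 (limma, against 6.23% of all tested genes). Of all tested genes 50.4% were lower. QARS1, which charges glutamine, stood at 11.94, 11.55, 11.61, 11.79 and 12.06 in ad libitum dogs 2, 5, 6, 7 and 8, against 12.09, 12.37, 11.90 and 11.81 in control dogs 1, 3, 4 and 9. The groups overlapped: control dogs 1 and 3 were above every ad libitum dog, while ad libitum dogs 2 and 8 were above control dogs 4 and 9. Its means were 11.79 ± 0.218 (SD, n = 5) in ad libitum dogs and 12.04 ± 0.252 (SD, n = 4) in control dogs. The fitted log2 difference was -0.25 (SE 0.16, 95% interval -0.61 to 0.11, limma adjusted p = 0.806). Without control dog 3 the difference was -0.14.

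The other enzymes of the complex were closer to 0 or more variable. IARS1 and LARS1, which charge the branched-chain amino acids isoleucine and leucine, had log2 differences of -0.22 (95% interval -0.59 to 0.15) and -0.031 (-0.44 to 0.38). MARS1, which charges the methionine of initiator and elongator transfer RNAs, had -0.20 (-0.59 to 0.19), and 5 of 5 ad libitum dogs were below its control mean, which control dog 3 raised with 8.38 against 7.66 to 7.75 in the other control dogs. RARS1, for arginine, and KARS1, for lysine, had -0.16 (-0.54 to 0.22) and -0.096 (-0.46 to 0.26). Single dogs carried much of these values, since RARS1 had -0.029 without ad libitum dog 2, KARS1 -0.0062 without ad libitum dog 5, and MARS1 -0.037 and IARS1 -0.13 without control dog 3. EPRS1, the fused enzyme for glutamate and proline, had -0.11 (-0.65 to 0.43). In EPRS1 a single dog set the direction, since ad libitum dog 2 held 8.64 where the other ad libitum dogs held 9.35 to 9.88, and without it the difference was 0.084. LARS1 turned to between 0.021 and 0.069 without ad libitum dog 5 or 6 or control dog 9, so that 6 of 7 enzymes of the complex were lower in each of these settings. With the adipocyte covariate 4 of the 7 were lower.

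Among the 11 cytosolic enzymes outside the complex, 6 were lower and 5 higher on average in ad libitum dogs, and the median was -0.028. FARSA and FARSB are the subunits of the phenylalanine enzyme. FARSA stood at 8.10, 7.77, 7.34, 8.48 and 8.15 in ad libitum dogs 2, 5, 6, 7 and 8, against 8.12, 8.90, 7.88 and 8.16 in control dogs 1, 3, 4 and 9. Control dog 3 was the highest and ad libitum dog 6 the lowest of the 9, and the rest of the dogs overlapped. The log2 difference of FARSA was -0.30 (SE 0.27, 95% interval -0.90 to 0.30, limma adjusted p = 0.867), or -0.085 without control dog 3, and that of FARSB was -0.21 (-0.56 to 0.13).

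TARS1, the threonine enzyme, stood at 6.84, 7.66, 7.87, 8.15 and 8.29 in ad libitum dogs 2, 5, 6, 7 and 8, against 7.97, 8.03, 7.78 and 8.30 in control dogs 1, 3, 4 and 9. Ad libitum dog 2 was the lowest by a wide step, and the other 4 ad libitum dogs overlapped the control dogs. The log2 difference was -0.26 (SE 0.28, 95% interval -0.88 to 0.37, limma adjusted p = 0.890), and -0.026 without ad libitum dog 2. VARS1, which charges valine, the third branched-chain amino acid, had -0.18 (-0.62 to 0.26), with -0.041 without control dog 3 and -0.36 without control dog 4. The enzymes for leucine, isoleucine and valine had values from -0.22 to -0.031 with all 9 dogs. YARS1, for tyrosine, and CARS1, for cysteine, had -0.081 and -0.028.

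Among cytosolic enzymes whose ad libitum mean was the higher one, the 3 with the largest differences were WARS1, HARS1 and SARS1, all small. WARS1, the tryptophan enzyme, known in human cells as an interferon-induced gene, stood at 9.37, 9.01, 9.23, 9.24 and 9.09 in ad libitum dogs 2, 5, 6, 7 and 8, against 8.83, 9.22, 9.21 and 8.97 in control dogs 1, 3, 4 and 9. Only ad libitum dogs 2, 6 and 7 were above every control dog. The log2 difference was 0.13 (SE 0.13, 95% interval -0.15 to 0.41, limma adjusted p = 0.880), and 0.055 without control dog 1. HARS1, for histidine, stood at 7.49, 7.31, 7.06, 6.78 and 7.11 in the same ad libitum dogs, against 7.06, 7.06, 7.03 and 7.00 in control dogs. The control dogs lay within 0.1 of each other, and ad libitum dogs lay on both sides of them. Control dogs 1 and 3 and ad libitum dog 6 held the identical value, 7.06367. The log2 difference of HARS1 was 0.11 (SE 0.14, 95% interval -0.22 to 0.44, limma adjusted p = 0.908), and 0.025 without ad libitum dog 2. SARS1, for serine, stood at 10.68, 10.29, 10.60, 10.71 and 10.49 in ad libitum dogs, against 10.18, 10.92, 10.66 and 10.32 in control dogs, with the ad libitum dogs all inside the control range. Its log2 difference was 0.035 (SE 0.17, 95% interval -0.35 to 0.42, limma adjusted p = 0.980). NARS1, for asparagine, and AARS1, for alanine, had 0.029 and 0.014. The directions of SARS1, NARS1 and AARS1 turned when each array was centred on its median, to -0.0069, -0.014 and -0.029.

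**Figure D2:**
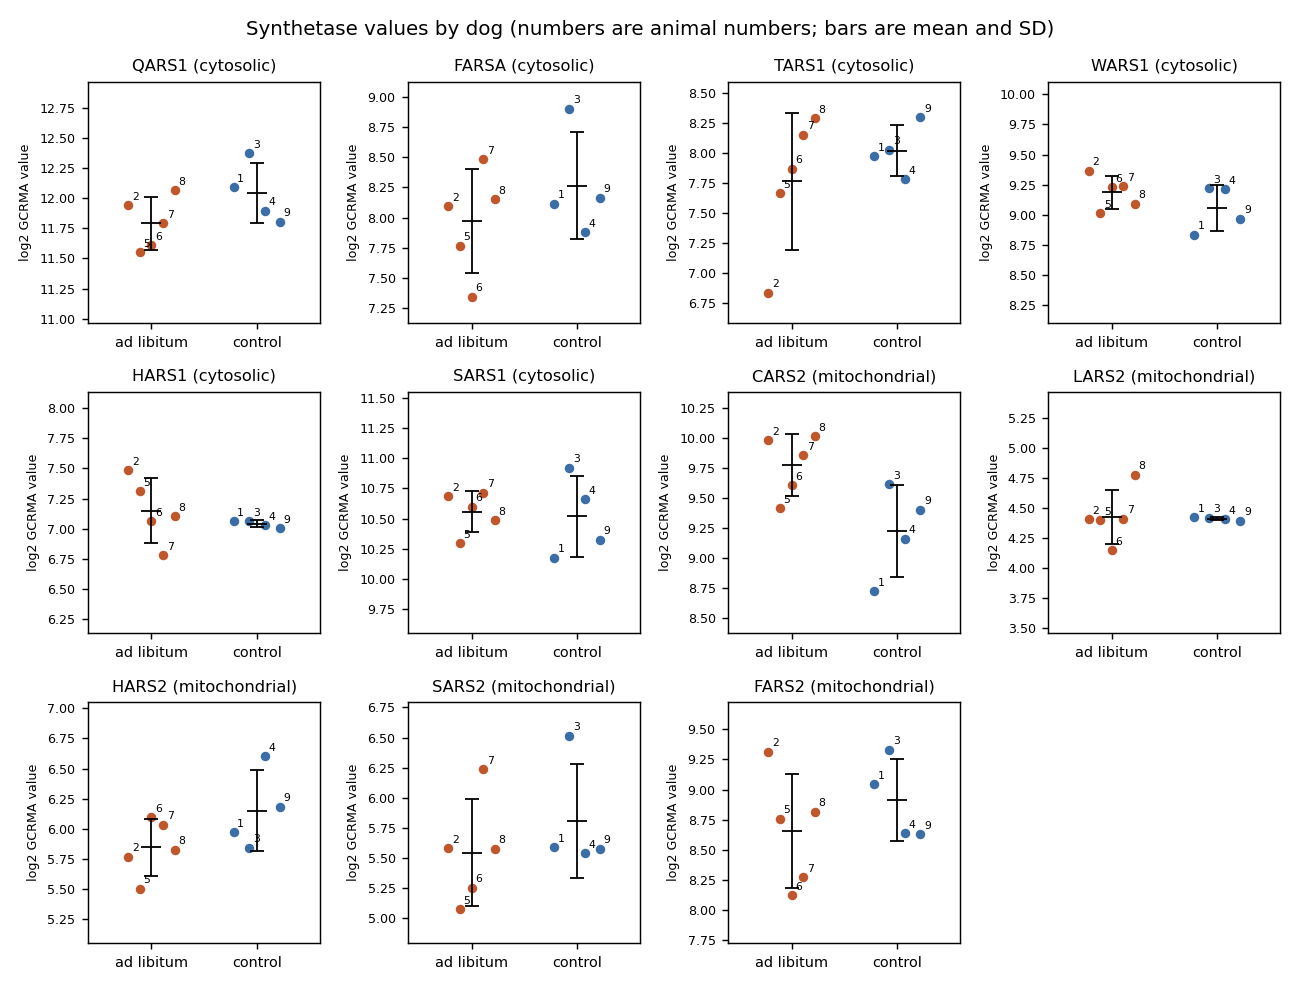
Log2 GCRMA values of 11 synthetases in each ad libitum dog (left, orange) and control dog (right, blue), labelled by animal number, with the mean and SD of each group; every panel spans 2 log2 units. The groups overlap in all 11 panels, CARS2 included, where ad libitum dogs 2, 7 and 8 lie above control dog 3.

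Of the 15 mitochondrial enzymes 11 were tested, and CARS2 stood apart from the rest. CARS2, which charges cysteine in the mitochondrial matrix, was the one member with an unadjusted p under 0.05 (1 of 11, against 6.23% of all tested genes, or 4.1% in this direction). It stood at 9.98, 9.42, 9.60, 9.86 and 10.01 in ad libitum dogs 2, 5, 6, 7 and 8, against 8.73, 9.61, 9.16 and 9.40 in control dogs 1, 3, 4 and 9. All 5 ad libitum dogs were above the control mean and 3 of them were above every control dog, with control dog 1 the lowest of the 9. The means were 9.77 ± 0.256 (SD, n = 5) in ad libitum dogs and 9.23 ± 0.381 (SD, n = 4) in control dogs. The fitted log2 difference was 0.55 (SE 0.20, 95% interval 0.094 to 1.00, limma adjusted p = 0.796), or 1.46-fold. The second tested probe set of CARS2 had a log2 difference of 0.61 (95% interval 0.070 to 1.14, limma adjusted p = 0.796) and also had an unadjusted p under 0.05. Without control dog 1 the difference was 0.38, without ad libitum dog 8 it was 0.49 and without control dog 4 it was 0.53, and in these 3 settings the unadjusted p was no longer under 0.05. With the adipocyte covariate it was 0.69.

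The other tested mitochondrial enzymes had lower means in ad libitum muscle, apart from LARS2. In all, 9 of the 11 were lower (81.8%, against 50.4% of all tested genes), with a median log2 difference of -0.17 and 0 past an adjusted p of 0.05 (limma). The median was -0.11 without control dog 3 and -0.075 with the adipocyte covariate. HARS2, for histidine, stood at 5.77, 5.50, 6.10, 6.03 and 5.83 in ad libitum dogs 2, 5, 6, 7 and 8, against 5.97, 5.84, 6.60 and 6.18 in control dogs 1, 3, 4 and 9. All 5 ad libitum dogs were below the control mean, which control dog 4 raised, and the groups overlapped. The log2 difference was -0.31 (SE 0.18, 95% interval -0.72 to 0.11, limma adjusted p = 0.799), or -0.15 without control dog 4.

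SARS2, for serine, stood at 5.58, 5.08, 5.25, 6.24 and 5.58 in ad libitum dogs, against 5.59, 6.51, 5.54 and 5.58 in control dogs. Control dog 3 and ad libitum dog 7 were high and the other 3 control dogs lay within 0.1 of each other. The log2 difference was -0.26 (SE 0.28, 95% interval -0.88 to 0.37, limma adjusted p = 0.891), or -0.022 without control dog 3. FARS2, for phenylalanine, stood at 9.32, 8.76, 8.12, 8.27 and 8.82 in ad libitum dogs, against 9.04, 9.33, 8.64 and 8.63 in control dogs. Ad libitum dogs 6 and 7 were below all others, and ad libitum dog 2 was just below the highest control dog. Its log2 difference was -0.25 (SE 0.26, 95% interval -0.84 to 0.33, limma adjusted p = 0.887), or -0.11 without control dog 3.

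TARS2, for threonine, and EARS2, for glutamate, had log2 differences of -0.22 (95% interval -0.50 to 0.055) and -0.18 (-0.40 to 0.046). All 5 ad libitum dogs were below the control mean of each, and also of NARS2, for asparagine, at -0.11 (-0.32 to 0.094). With no moderation of the variances, or with no filter on low values, EARS2 and NARS2 as well as CARS2 had an unadjusted p under 0.05. RARS2, IARS2 and VARS2, for arginine, isoleucine and valine, had -0.17, -0.16 and -0.11, with IARS2 at -0.033 without control dog 4 and VARS2 at 0.081 without control dog 3. LARS2, for leucine, stood at 4.41, 4.40, 4.15, 4.41 and 4.78 in ad libitum dogs, against 4.42, 4.42, 4.41 and 4.39 in control dogs. Of these 9 values 7 lay between 4.39 and 4.42, near the filter, and ad libitum dogs 6 and 8 lay to either side. The log2 difference was 0.018 (SE 0.13, 95% interval -0.27 to 0.31, limma adjusted p = 0.988), and it turned to -0.069 without ad libitum dog 8. NARS2 also lay near the filter, at 4.44 to 4.52 in ad libitum dogs and 4.48 to 4.69 in control dogs.

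The 4 mitochondrial members below the filter were AARS2, PARS2, WARS2 and YARS2, for alanine, proline, tryptophan and tyrosine. PARS2, WARS2 and YARS2 exceeded 4 on 0 arrays and AARS2 on 1. Their values ran from 2.39 to 4.18 in ad libitum dogs and from 2.39 to 3.68 in control dogs, and their log2 differences, fitted with no filter, from -0.053 to 0.066. They entered no test.

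For 12 pairs of a cytosolic and a mitochondrial gene for the same amino acid, both genes were tested, with FARS2 paired to each of FARSA and FARSB. Both genes had lower means in ad libitum muscle in 7 pairs, for arginine, glutamate, isoleucine, phenylalanine (both subunits), threonine and valine. The signs were opposite in 5 pairs, and no pair had both higher. The widest gap was that of the cysteine enzymes, with CARS1 at -0.028 and CARS2 at 0.55. For histidine, HARS1 and HARS2 had 0.11 and -0.31. Class I enzymes had a median log2 difference of -0.13 with 13 of 16 tested lower, and class II enzymes of -0.21 with 9 of 13 lower.

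Dogs of the same group differed from each other in most members. Over the 9 dogs the range of a tested member was 0.811 log2 units at the median, from 0.252 for NARS2 to 1.56 for FARSA. Ad libitum dog 5 was below the 9-dog mean of 16 of the 18 cytosolic and all 11 mitochondrial members, and had the lowest value in 5 and 4 of them. Ad libitum dog 2 also had the lowest value in 5 cytosolic members, among them EPRS1, RARS1, TARS1 and NARS1, while it was highest in WARS1 and HARS1. Control dog 3 had the highest value in 7 cytosolic and 4 mitochondrial members. The median deviation from the 9-dog mean over the cytosolic members ran from -0.17 (dog 5) to 0.17 (dog 7) in ad libitum dogs and from -0.065 (dog 1) to 0.17 (dog 3) in control dogs. Over the mitochondrial members it ran from -0.079 (dog 5) to 0.047 (dog 8) in ad libitum dogs and from -0.045 (dog 9) to 0.13 (dog 3) in control dogs. Dog 5 had the highest list mean of the 9 for fibroblast and matrix markers (11.6) and macrophage markers (8.01). Control dog 3 had the lowest for both (7.28 and 4.90). The next highest for both was ad libitum dog 6 (10.4 and 6.78). The median deviation of dog 6 was 0.0086 over the cytosolic and -0.078 over the mitochondrial members. The next lowest list means for both were those of ad libitum dog 7 (7.56 and 5.00). Dog 7 had a median deviation of 0.17 over the cytosolic and -0.0090 over the mitochondrial members. The adipocyte list was highest in ad libitum dog 2 (10.2) and lowest in control dog 4 (7.63). The part of these cells in the synthetase values was not tested. The adipocyte covariate came from the same arrays and differed with the group, so it cannot tell adipocyte content from feeding.

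**Figure D3:**
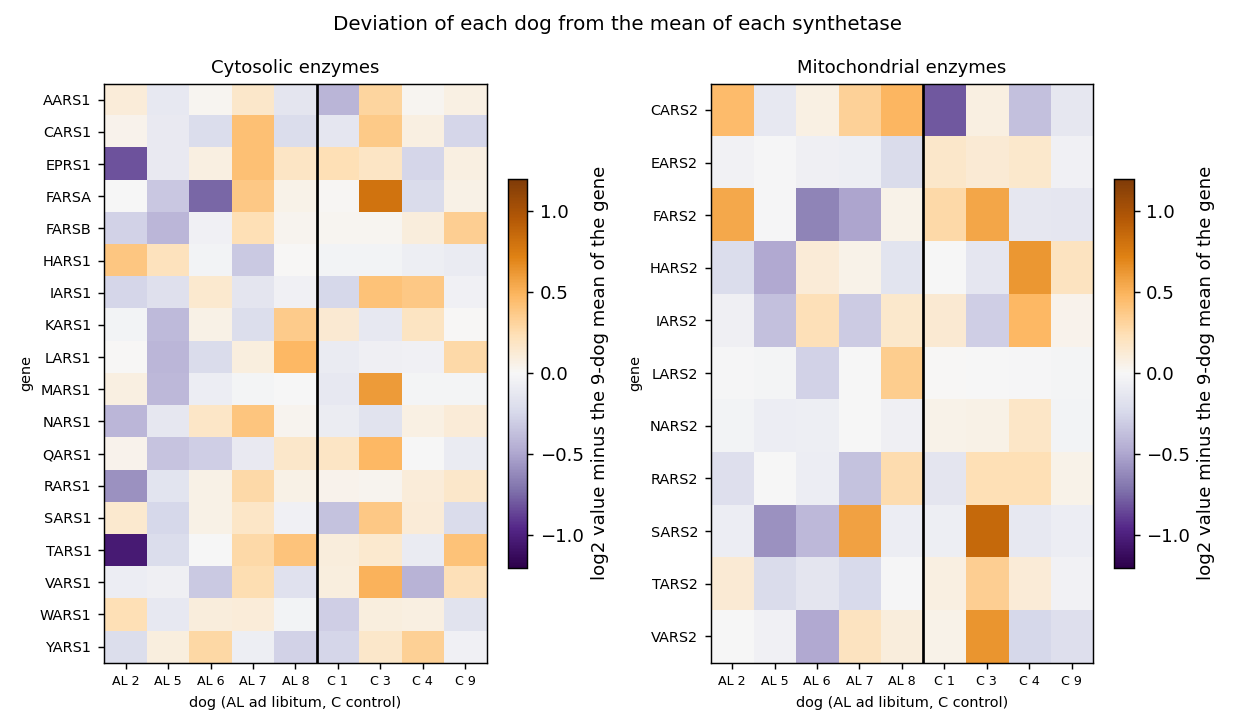
Each cell shows a dog's log2 value minus the 9-dog mean of that gene, for 18 cytosolic (left) and 11 mitochondrial (right) synthetases, with ad libitum dogs left of the black line and control dogs right of it. Control dog 3 is the highest of the 9 in 11 genes, ad libitum dog 5 is below the mean in 27 of 29, and ad libitum dog 2 is far below it in TARS1 and EPRS1.

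Most genes were measured by several probe sets, which gives a check on single values. The 29 tested genes had 81 tested probe sets, of which 58 had lower means in ad libitum muscle (71.6%, against 51.6% of all tested probe sets). An unadjusted p under 0.05 was found for 2 (2.47%, against 5.91% of all tested probe sets), both of CARS2, and an adjusted p under 0.05 for 0. Groups did not overlap for 0 of the 81, against 1.44% of all tested probe sets. Of the 23 genes with several tested probe sets, 12 were lower on all of them, among them QARS1, KARS1, RARS1, MARS1, FARSA, FARSB, TARS1 and YARS1, and 4 were higher on all, which were CARS2, HARS1, NARS1 and WARS1. The other 7 had both signs. The probe sets of a gene spanned 0.104 log2 units at the median. The widest span was that of EPRS1, whose 4 tested probe sets ran from -0.41 to 0.011. The next widest were those of FARSA, from -0.40 to -0.017 over 4, and IARS1, from -0.22 to 0.087 over 5.

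**Figure D4:**
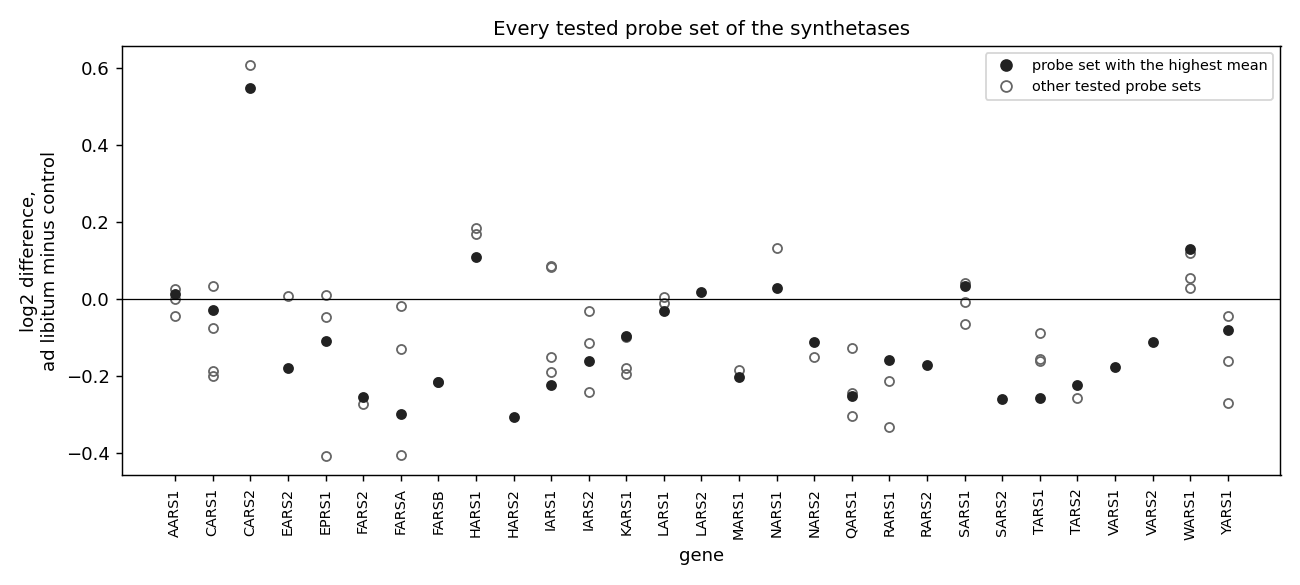
Log2 difference, ad libitum minus control, of each of the 81 tested probe sets of 29 synthetase genes; filled points are the probe set with the highest mean and open points the others. Both probe sets of CARS2 lie above 0.5, and every other point lies between -0.41 and 0.18.

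The partners of the synthetases, from a list of scaffold and accessory proteins, gave no call either. Of the 9 tested members 4 were higher and 5 lower in ad libitum muscle, with a median log2 difference of -0.10. Of all tested genes 50.4% were lower. Among the 9, 0 had an unadjusted p under 0.05 (limma, against 6.23% of all tested genes), and 0 passed adjustment (against 0.0%). The scaffold subunits of the multisynthetase complex, AIMP1, AIMP2 and EEF1E1, had 0.063 (95% interval -0.69 to 0.82), -0.10 (-0.39 to 0.18) and -0.15 (-0.47 to 0.18). TARS3, a threonine enzyme related to TARS1, had -0.23, and it turned to 0.074 without ad libitum dog 2. SEPSECS, which completes the synthesis of selenocysteine on its transfer RNA, had -0.20 and turned to 0.097 without control dog 4. XPOT, the nuclear export receptor of transfer RNA, had 0.48 (-0.35 to 1.32), or 0.15 without control dog 3, and YRDC, which takes part in a base modification of transfer RNA, had 0.16.

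In the list of mitochondrial transfer RNA charging and translation, 13 of 16 tested genes had lower means in ad libitum muscle. Over all tested genes 50.4% did. The median of the list was -0.11, with 0 at an unadjusted p under 0.05 (limma, against 6.23% of all tested genes) and 0 past adjustment. GATB and QRSL1 are subunits of the amidotransferase that makes glutaminyl transfer RNA in the matrix, where it takes the place of a glutaminyl-tRNA synthetase. They had log2 differences of -0.25 (95% interval -0.88 to 0.39) and 0.43 (-0.24 to 1.10), and QRSL1 had 0.22 without ad libitum dog 7 and 1.08 with the adipocyte covariate. The release factor MTRF1 and the ribosome recycling factor MRRF had -0.24 and -0.21. They had -0.046 without ad libitum dog 2 (MTRF1) and -0.081 without ad libitum dog 7 (MRRF). MRRF lay near the filter, at 3.72 to 4.71 in ad libitum dogs and 4.29 to 4.83 in control dogs. MTFMT, which formylates the initiator methionine, and TRMU, which modifies transfer RNA, had 0.0093 and 0.038. GATB and MTRF1 turned to 0.17 and 0.15 with the adipocyte covariate.

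Of the 4 pathway lists, the amino acid response list held the widest differences. Its transcription factor ATF4 and the sensor kinase EIF2AK4, which binds uncharged transfer RNA, were read as mRNA only. The translation of ATF4 and the activity of EIF2AK4 were not measured. Of the 19 tested genes 13 were higher and 6 lower in ad libitum muscle, with a median of 0.067. Over all tested genes 50.4% were lower. An unadjusted p under 0.05 was found for 2 of the 19 (limma, against 6.23% of all tested genes), and 0 passed adjustment. Another 10 genes of the list were below the filter. ATF4 had a log2 difference of -0.13 (95% interval -0.43 to 0.18) and EIF2AK4 of 0.067 (-0.16 to 0.29). DDIT3, a transcription factor of the stress response, stood at 6.59, 6.20, 6.49, 7.00 and 6.14 in ad libitum dogs 2, 5, 6, 7 and 8, against 5.67, 5.61, 6.15 and 5.08 in control dogs 1, 3, 4 and 9. Only ad libitum dog 8 fell among the control dogs, just below control dog 4. The log2 difference of DDIT3 was 0.86 (SE 0.24, 95% interval 0.32 to 1.40, limma adjusted p = 0.796), between 0.68 and 1.04 with a dog left out and 1.24 with the adipocyte covariate.

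PSPH, the last enzyme of serine synthesis, stood at 10.23, 9.22, 9.05, 8.84 and 8.56 in ad libitum dogs 2, 5, 6, 7 and 8, against 8.87, 8.41, 6.84 and 8.29 in control dogs 1, 3, 4 and 9. Only control dog 1 reached into the ad libitum range. The log2 difference of PSPH was 1.08 (SE 0.44, 95% interval 0.079 to 2.08, adjusted p = 0.796 with limma), or 0.66 without control dog 4. PHGDH, the first enzyme of that pathway, had 1.01 (95% interval -0.32 to 2.34). Asparagine synthetase, ASNS, had 1.00 (-0.068 to 2.08), and the glutamine transporter SLC1A5 had 1.19 (-0.031 to 2.41). In SLC1A5, ad libitum dogs 2, 5 and 6 held 6.66, 5.81 and 6.34. Ad libitum dogs 7 and 8 (4.01 and 4.34) and the control dogs (4.06 to 4.68) lay near the filter of 4. ASNS was below 4 in control dog 9 (3.86). With the adipocyte covariate PSPH had 0.17, ASNS 0.45, SLC1A5 0.069 and PHGDH -0.53. On the low side were DDIT4, an inhibitor of mTORC1, at -0.64, CHAC1, a glutathione-degrading enzyme, at -0.40, and SLC3A2, the heavy chain of amino acid transporters, at -0.28. DDIT4 had -0.12 without ad libitum dog 7 and -1.85 with the adipocyte covariate. CHAC1 was below 4 in ad libitum dogs 5, 6 and 7 (3.87, 3.52 and 3.75) and control dogs 1 and 4 (3.88 and 3.74). Its highest values were those of ad libitum dog 2 (5.99) and control dog 9 (5.98). The CHAC1 difference was -0.84 without ad libitum dog 2 and turned to 0.050 without control dog 9.

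The interferon-induced genes, listed because of WARS1, were higher on average in ad libitum dogs for 8 of the 10 tested. Over all tested genes 50.4% were lower. The median log2 difference of the list was 0.28. In it, 0 had an unadjusted p under 0.05 (limma, against 6.23% of all tested genes) and 0 passed adjustment. OAS2, an antiviral enzyme, had 0.67 (95% interval -0.33 to 1.67), and the immunoproteasome subunits PSMB8 and PSMB9 had 0.35 and 0.30, which became -0.19 and -0.081 with the adipocyte covariate. Without ad libitum dog 5, the highest of the 9 in all 3, OAS2 had 0.27, PSMB8 0.080 and PSMB9 0.11. TAP1, a peptide transporter, and IRF1, a transcription factor, had -0.15 and -0.11. Another 12 genes of the list, among them ISG15, MX1 and CXCL10, were below the filter.

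**Figure D5:**
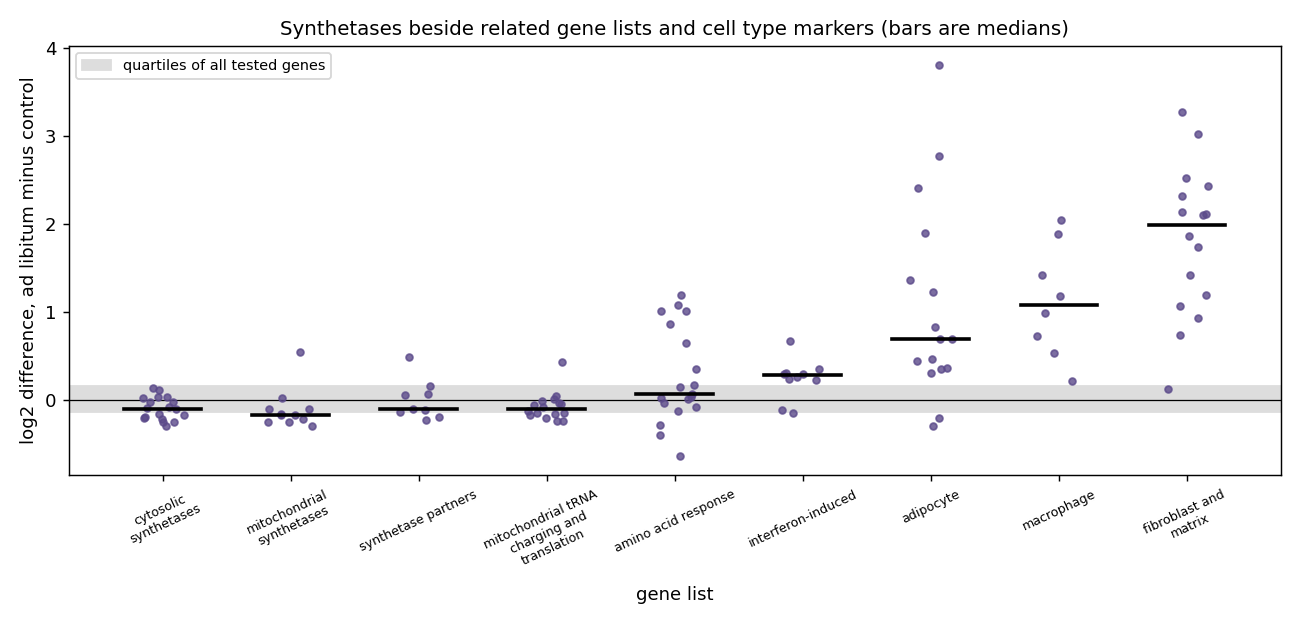
Log2 differences, ad libitum minus control, of tested members of each gene list (points) with the list's median (bar); the grey band runs between the quartiles of the 7534 tested genes, from -0.14 to 0.16. Medians are -0.10 for cytosolic enzymes, -0.17 for mitochondrial enzymes, which is below the band, and -0.10 for the partners. The matrix markers have a median of 1.98. Synthetases lie on both sides of the band, from -0.31 for HARS2 to 0.55 for CARS2.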

How the data were processed

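The values were deposited log2 GCRMA values, 1 array per dog, and the submitters' processing notes name GCRMA without a version. Per the labels' protocols, biotin-labelled cRNA was made by 3' amplification. No source used here states the log2 base, which was read from the range of the values. GCRMA corrects background by probe sequence and normalizes by quantiles, so a shift of most transcripts would not appear, and values of different probe sets are not comparable in level. The number of arrays limits the precision, with a median standard error of 0.197. Identical values on 2 or more arrays occurred in 25.3% of the tested probe sets. They occurred in 4 of the 29 tested members, which were EPRS1, HARS1, MARS1 and SARS2.

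Of 43035 probe sets, 111 controls were left out and 18394 that exceeded 4 on 4 or more arrays were tested. Names came from the platform annotation: 29264 probe sets had 1 symbol, 439 several and 13332 none, and 27690 were found by gene ID in the gene table of UU_Cfam_GSD_1.0, which changed 0 symbols. The rule matched 105 probe sets of 33 genes.

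The fit used limma 3.58.1 under R 4.3.3 (lmFit, eBayes, two-sided, no covariate, 7 residual and 2.32 prior degrees of freedom) and adjusted by the Benjamini-Hochberg method over all tested probe sets, with a threshold of 0.05. Lists were described by counts and medians. The step was tested on simulated data. Groups and replicate numbers came from the labels. The alternatives changed the filter, floor, normalization, variance model, array weights, adipocyte covariate, probe set and compartment, or left out each dog. Members and lists were chosen with earlier results of these data known. Values in full are given for members with an unadjusted p under 0.05 or groups that do not overlap, and for the 3 largest differences per direction and compartment. Of each pathway list, members with an unadjusted p under 0.05 and up to 3 more per direction are named. AIMP2, ATF4 and EIF2AK4 were named after their values were seen. Motifs were not searched, since no sequence table was used here.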

Additional observations from a re-analysis of the deposited data

Results flagged for a closer look

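Each member was checked in each group for a dog far from the rest of its group, by Dixon's ratio at the 95% level. Of 66 such groups 7 held one, where chance gives about 1 in 20. Control dog 3 stood high in MARS1 (8.38, against 7.66 to 7.75 in the other control dogs), SARS2 (6.51, against 5.54 to 5.59) and PARS2 (2.60, against 2.39 to 2.42). Control dog 9 stood high in LARS1 (9.23, against 8.86 to 8.90). Ad libitum dog 2 stood high in AARS2 (4.18, against 3.28 to 3.44 in the other ad libitum dogs), ad libitum dog 8 low in EARS2 (5.89, against 6.04 to 6.10) and ad libitum dog 5 low in WARS2 (3.65, against 3.67 to 3.67). AARS2, PARS2 and WARS2 lie below the filter on low values.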

How the results depend on the processing

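No member passed an adjusted p of 0.05 under any alternative run (lowest 0.407, limma), and CARS2 kept its direction in all of them. No paired analysis was possible because the replicate numbers are animal numbers and the groups share none. With the adipocyte covariate the median of the cytosolic enzymes was 0.046 and that of the mitochondrial enzymes -0.075, and directions turned for CARS1 (0.26), EPRS1 (0.15), HARS1 (-0.13), LARS1 (0.040), RARS1 (0.11), SARS2 (0.13), TARS1 (0.052), VARS2 (0.015), YARS1 (0.071), TARS3 (0.35), SEPSECS (0.48), GATB (0.17), MTRF1 (0.15), SLC3A2 (0.031), PHGDH (-0.53), PSMB9 (-0.081), PSMB8 (-0.19) and ATF4 (0.12). The cause was not tested. With array weights CARS1 (0.0055), LARS2 (-0.024), YARS1 (0.028), AIMP1 (-0.018) and MTFMT (-0.035) turned. With arrays centred on their median AARS1 (-0.029), LARS2 (-0.025), NARS1 (-0.014), SARS1 (-0.0069), MTFMT (-0.033) and TRMU (-0.0044) turned. MTFMT also turned with cyclic loess (-0.0072), and AARS1 with the mean over its probe sets (-0.00016). Other probe sets gave AARS1 -0.042, CARS1 0.033, EARS2 0.0092, EPRS1 0.011, IARS1 0.084 and 0.087, LARS1 0.0063, and SARS1 -0.066 and -0.0062. The number of probe sets called was 0, and 1 with values below 4 raised to 4 (CISH, -2.97, adjusted p = 0.00461) or without ad libitum dog 8 (LOC489640, -3.97, adjusted p = 0.0411). With 1 dog left out, the median of the cytosolic enzymes ran from -0.17 to -0.038 and that of the mitochondrial enzymes from -0.22 to -0.11. Ranges that crossed 0 were those of AARS1 (-0.13 to 0.12), CARS1 (-0.14 to 0.090), EPRS1 (-0.23 to 0.084), LARS1 (-0.15 to 0.069), LARS2 (-0.069 to 0.088), NARS1 (-0.067 to 0.14), SARS1 (-0.080 to 0.17), VARS2 (-0.21 to 0.081), YARS1 (-0.18 to 0.015), TARS3 (-0.39 to 0.074), SEPSECS (-0.37 to 0.097), AIMP1 (-0.12 to 0.31), MTFMT (-0.081 to 0.14), CHAC1 (-0.84 to 0.050) and IRF1 (-0.21 to 0.029).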
